A study of Mus musculus with 12 samples.

Results

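The accessible chromatin of livers from mice after vertical sleeve gastrectomy (VSG) was compared with that of livers from Sham-operated mice by setting one list of FAIRE-seq peaks against the other. A peak was called shared when it overlapped a peak of the other list by at least 1 bp, and Sham-only or VSG-only when it did not. The Sham list held 52881 peaks and the VSG list 44539, together 97420 of the 139624 peaks in the 3 lists of the study. Of the Sham peaks 13240 were Sham-only, and of the VSG peaks 4263 were VSG-only. The comparison was repeated with the 42204 peaks of highest signal from each list, which is the size of the third list, from Control mice.

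All mice were male C57BL/6J. Sham and VSG mice received a high-fat diet with 60 kcal% fat from 8 weeks of age, for 14 weeks before and 14 weeks after surgery, so that the diet was common to both groups. In VSG mice about 80% of the stomach was removed along its lateral side, and in Sham mice the stomach was only exposed and pressed with blunt forceps. Both then took a liquid diet for 4 days. Control mice, which ate chow for 28 weeks and had no surgery, appear here only as a reference. Livers of 2 mice were profiled in each group, and each list keeps the peaks found reproducibly in both mice, so that it is 1 pooled observation with no value per mouse. No test between the 2 lists was therefore possible. The shares below carry 95% Wilson intervals that cover counting error only, and the read depth behind the lists is unknown. RNA-seq of the same livers gave FPKM values (fragments per kilobase of transcript, scaled to the size of the library) for each mouse. Of 14 hepatocyte marker genes 13, all but Alb, had a promoter peak in both lists, against 49.4% of all protein-coding genes. The share was 100% for clock genes, so that this count does not identify the cell type.

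FAIRE recovers the DNA that formaldehyde has not tied to nucleosomes, and regions rich in its reads mark accessible promoters and enhancers. In hepatocytes the enhancers are bound by factors such as HNF4A, FOXA, HNF6 and C/EBP, whereas promoters of broadly expressed genes often lie in CpG-rich sequence bound by SP1 and ETS factors. Hepatocytes also make the acute phase proteins of the blood, whose genes respond to interleukin 6 through C/EBP and STAT3, and the Cyp enzymes and transporters that handle bile acids and drugs.

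Sequences of the strongest one-list peaks are given as examples, too few to compare the lists by. They are shown on the plus strand of mm9 (NCBIM37), up to 300 bases around the highest point, in lower case with matches to the searched factor motifs in capitals. The first 3 are Sham-only: the pair of highest signal, near Ndfip2 and Cpb2, and the strongest with a DR1, which is AGGTCA and AGGTCA separated by 1 base and is bound by PPAR:RXR and HNF4A.
Ndfip2 (chr14:105654888-105655187): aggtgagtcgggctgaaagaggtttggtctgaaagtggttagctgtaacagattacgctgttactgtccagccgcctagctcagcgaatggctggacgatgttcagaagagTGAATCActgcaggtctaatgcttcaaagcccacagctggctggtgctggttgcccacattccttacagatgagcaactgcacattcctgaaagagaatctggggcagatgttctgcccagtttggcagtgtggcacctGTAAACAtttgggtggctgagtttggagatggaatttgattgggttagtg
Cpb2 (chr14:75636961-75637260): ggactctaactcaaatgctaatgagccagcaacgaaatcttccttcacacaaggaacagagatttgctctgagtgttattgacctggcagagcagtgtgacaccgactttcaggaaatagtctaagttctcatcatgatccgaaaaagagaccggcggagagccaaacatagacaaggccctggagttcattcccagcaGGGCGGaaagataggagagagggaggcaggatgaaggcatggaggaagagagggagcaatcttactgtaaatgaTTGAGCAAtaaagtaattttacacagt
1700020N01Rik (chr10:21320825-21321065): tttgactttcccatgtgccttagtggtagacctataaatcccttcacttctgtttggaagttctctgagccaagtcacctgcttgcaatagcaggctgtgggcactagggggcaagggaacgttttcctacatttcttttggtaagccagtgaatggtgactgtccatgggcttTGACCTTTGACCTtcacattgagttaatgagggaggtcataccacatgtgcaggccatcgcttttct
The capitals mark an AP-1 and a FOXA match near Ndfip2, a GC box and a C/EBP match near Cpb2, and the DR1 on the minus strand of the third, 7861 bp from the start site of 1700020N01Rik.

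The next pair are the VSG-only peaks of highest signal. Neither held a match to the motifs, and both lay in predicted genes at the proximal end of chromosome 9. This end is repeated satellite sequence, and the end of the first window recurs at the start of the second. Reads are hard to assign among such copies, so that these peaks are less certain.
Gm17535 (chr9:3034904-3035203): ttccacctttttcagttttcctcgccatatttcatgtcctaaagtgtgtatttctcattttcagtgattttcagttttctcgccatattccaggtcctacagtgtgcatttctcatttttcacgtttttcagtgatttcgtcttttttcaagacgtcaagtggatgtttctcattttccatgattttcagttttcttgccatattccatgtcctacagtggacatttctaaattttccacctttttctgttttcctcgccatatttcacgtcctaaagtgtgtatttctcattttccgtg
Gm16869 (chr9:3037872-3038090): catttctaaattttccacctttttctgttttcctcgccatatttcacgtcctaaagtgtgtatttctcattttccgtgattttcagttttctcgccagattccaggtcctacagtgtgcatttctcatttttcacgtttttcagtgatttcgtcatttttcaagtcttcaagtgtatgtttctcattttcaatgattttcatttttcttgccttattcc

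The last 6 are promoter peaks of genes described below, cut to the part outside exons. They were picked after their values were seen. Hamp, Saa1 and Saa2 had a promoter peak in the Sham list and none in the VSG list, while Cyp3a11, Cyp7b1 and Aqp1 had one in the VSG list and none in the Sham list.
Hamp (chr7:31729087-31729386): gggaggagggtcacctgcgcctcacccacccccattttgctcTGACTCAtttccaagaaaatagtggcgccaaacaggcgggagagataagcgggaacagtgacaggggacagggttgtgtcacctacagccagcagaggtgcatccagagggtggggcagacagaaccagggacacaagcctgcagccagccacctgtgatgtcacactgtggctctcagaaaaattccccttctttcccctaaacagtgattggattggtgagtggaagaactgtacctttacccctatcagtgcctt
Saa1 (chr7:53998351-53998616): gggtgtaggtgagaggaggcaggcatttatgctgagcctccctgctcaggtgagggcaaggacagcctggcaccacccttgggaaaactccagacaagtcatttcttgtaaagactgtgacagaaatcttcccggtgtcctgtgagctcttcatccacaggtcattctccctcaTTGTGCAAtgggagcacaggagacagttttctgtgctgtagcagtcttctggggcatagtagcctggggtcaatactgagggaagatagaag
Saa2 (chr7:54006951-54007202): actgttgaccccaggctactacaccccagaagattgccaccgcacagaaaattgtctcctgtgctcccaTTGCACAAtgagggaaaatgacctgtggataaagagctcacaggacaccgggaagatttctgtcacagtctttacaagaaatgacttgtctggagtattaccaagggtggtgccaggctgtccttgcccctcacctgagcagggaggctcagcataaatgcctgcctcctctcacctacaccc
Cyp3a11 (chr5:146691541-146691625): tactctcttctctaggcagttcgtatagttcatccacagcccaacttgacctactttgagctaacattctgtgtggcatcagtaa
Cyp7b1 (chr3:18143795-18143996): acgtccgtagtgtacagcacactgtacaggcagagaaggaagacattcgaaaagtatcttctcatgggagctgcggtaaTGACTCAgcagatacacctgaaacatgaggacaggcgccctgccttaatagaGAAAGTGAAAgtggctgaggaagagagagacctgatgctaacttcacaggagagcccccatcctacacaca
Aqp1 (chr6:55286153-55286425): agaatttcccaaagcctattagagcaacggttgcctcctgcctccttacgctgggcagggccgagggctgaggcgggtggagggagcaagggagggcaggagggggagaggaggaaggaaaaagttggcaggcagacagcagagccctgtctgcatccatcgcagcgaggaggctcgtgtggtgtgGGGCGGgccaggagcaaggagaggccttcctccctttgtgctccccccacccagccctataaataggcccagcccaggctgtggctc
The window of Hamp held an AP-1 match, and Saa1 and Saa2 each held a C/EBP match. Cyp7b1 held an AP-1 and an IRF match and Aqp1 a GC box, and Cyp3a11 held none in its 85 bases.

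To ask how much of the accessible chromatin differed, peaks were counted by class. The Sham-only peaks made up 25.04% of the Sham list (95% interval 24.7 to 25.4%) and the VSG-only peaks 9.57% of the VSG list (9.30 to 9.85%). When overlapping peaks were merged, 39081 of 56584 regions were covered by both lists, 13240 by Sham peaks only and 4263 by VSG peaks only. With the 42204 strongest peaks of each list, 7299 Sham peaks (17.3%) and 6621 VSG peaks (15.7%) had no partner. Most shared peaks met a single peak of the other list, so lists of equal size must give near-equal numbers. The excess of Sham-only peaks in the full lists therefore mostly restates the difference in list size.

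One-list peaks were weak and short. The median Sham-only peak stood at the 19.1st percentile of signal within its list, against 62.2 for shared peaks, and the median VSG-only peak at 14.6 against 54.7. The lowest 20% of peaks by signal held 51.8% of the Sham-only and 64.5% of the VSG-only peaks, while the highest 20% held 1 Sham-only and 2 VSG-only peaks. Of the Sham peaks, 70.3% had no partner in the lowest decile of signal and 0 of 5288 in the highest, where the upper limit was 0.0726%. In the VSG list the share went from 34.2% in the lowest decile to 0.0224% in the highest.

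**Figure D1:**
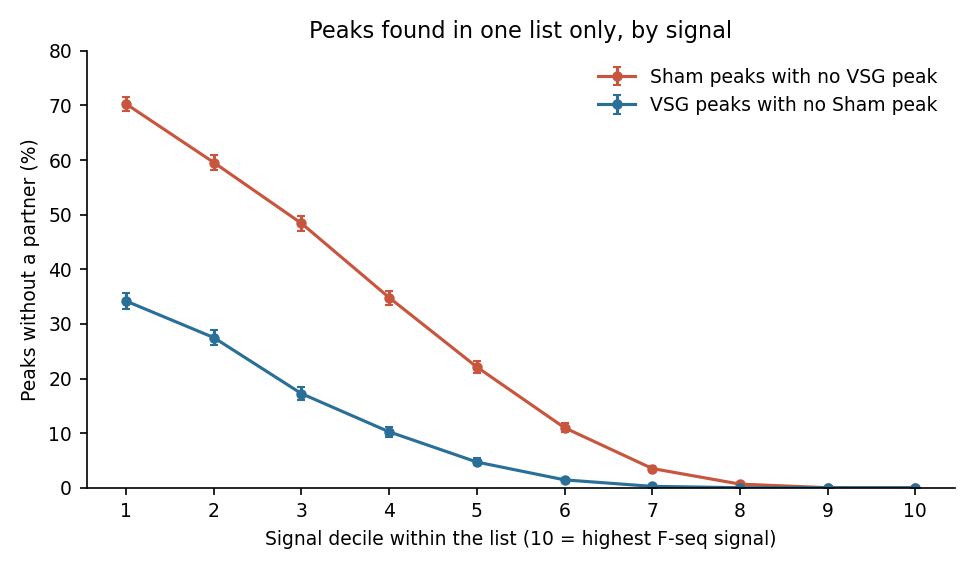
Percentage of peaks without a partner in the other list (y axis) by decile of F-seq signal within the list (x axis, 10 highest), for Sham peaks (red) and VSG peaks (blue). Bars are 95% Wilson intervals; the Sham curve starts at 70.3% and the VSG curve at 34.2%, and both approach 0 in the upper deciles.

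Median lengths were 244 bp for Sham-only and 246 bp for VSG-only peaks, close to the 250 bp feature length used for peak calling, against 392 and 334 bp for shared peaks of the Sham and VSG lists. In 37518 pairs in which 1 Sham peak met 1 VSG peak, the Sham peak was the longer in 77.8%, with a median difference of 42 bp. Among these pairs the Sham peak was longer in 63.7% at promoters and in 84.2% elsewhere. A further 1136 Sham peaks, with a median length of 1032 bp, spanned more than 1 VSG peak, and 552 VSG peaks, with a median of 941 bp, spanned more than 1 Sham peak.

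The one-list peaks lay in different parts of the genome. Within 1 kb of a transcription start site (TSS), here called the promoter, were 1036 Sham-only peaks, or 7.82%, and 1641 VSG-only peaks, or 38.5%, against 32.8 and 32.6% of shared peaks. Introns held 44.9% of Sham-only and 27.6% of VSG-only peaks, and intergenic sequence 39.7 and 23.9%. The median distance to a TSS was 17060 bp for Sham-only, 3598 bp for VSG-only and 6543 bp for shared peaks of the Sham list. At equal list size the promoter shares were 6.97 and 34.4%, so that the contrast in location stayed.

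**Figure D2:**
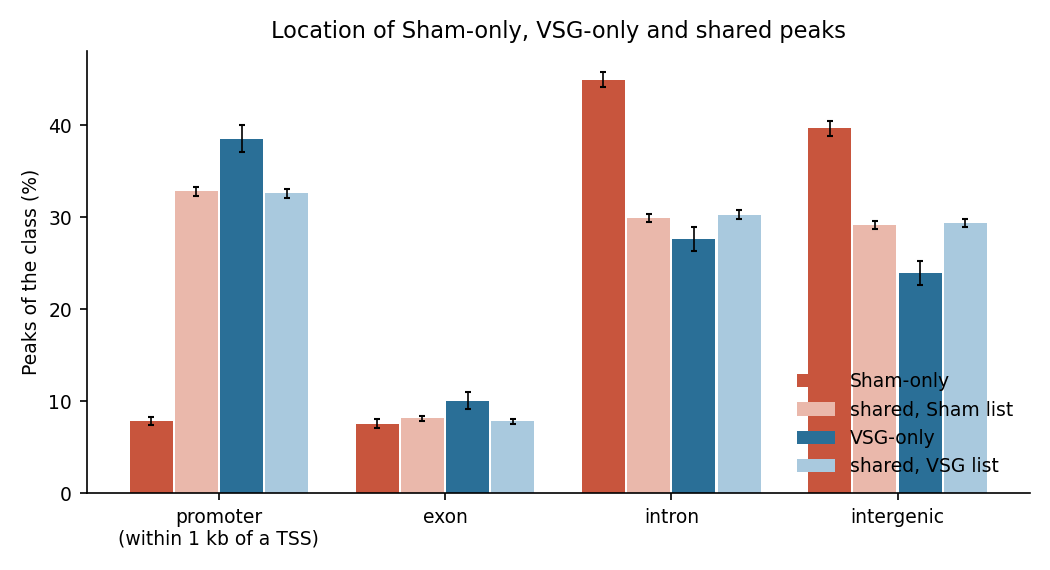
Percentage of peaks (y axis) in promoters, exons, introns and intergenic sequence for Sham-only, VSG-only and shared peaks, with 95% Wilson intervals as bars. Promoters held 7.82% of Sham-only and 38.5% of VSG-only peaks, on either side of the 32.8 and 32.6% of shared peaks.

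Base composition moved with the same contrast. The median GC content was 49.5% in Sham-only, 58.2% in VSG-only and 53.2% in shared peaks of the Sham list, and 0.672% of Sham-only against 39.4% of VSG-only peaks exceeded 60% GC. CpG-rich sequence, with GC above 50% and a ratio of observed to expected CpG above 0.6, was found in 1.71% of Sham-only and 31.0% of VSG-only peaks. Outside promoters the medians were still 49.5 and 55.7%. Of distal Sham peaks, 45.7% had no VSG partner at up to 45% GC and 1.52% above 65% GC, while of distal VSG peaks 17.1% and 31.2% had no Sham partner at those ends. The part of base composition in the counts of one-list peaks, whether from the libraries or from the livers, was not tested.

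Signal ranks of the shared pairs followed the same axis. Ranks within each list had a Spearman correlation of 0.792 across the 37518 pairs, given as a description because neighbouring sites and common sequence content are shared. Promoter pairs had a median rank shift, VSG minus Sham, of 6.09 percentile points (95% interval 5.73 to 6.52, quartiles −0.74 and 18.6) and ranked higher in VSG in 72.0% of 11681 pairs. Distal pairs had a median of −4.06 (−4.34 to −3.82) and ranked higher in VSG in 39.8% of 25837. The difference between the medians was 10.2 points. The intervals of these medians treat neighbouring peaks as independent and hold no spread between mice, since each group is 1 list. After centring the shifts on pairs of like GC content, an alternative chosen after the data were seen, the medians were −1.20 for promoters and 0.51 for distal pairs, and the difference turned to −1.71. The shift itself had a Spearman correlation of 0.573 with GC content across all pairs.

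**Figure D3:**
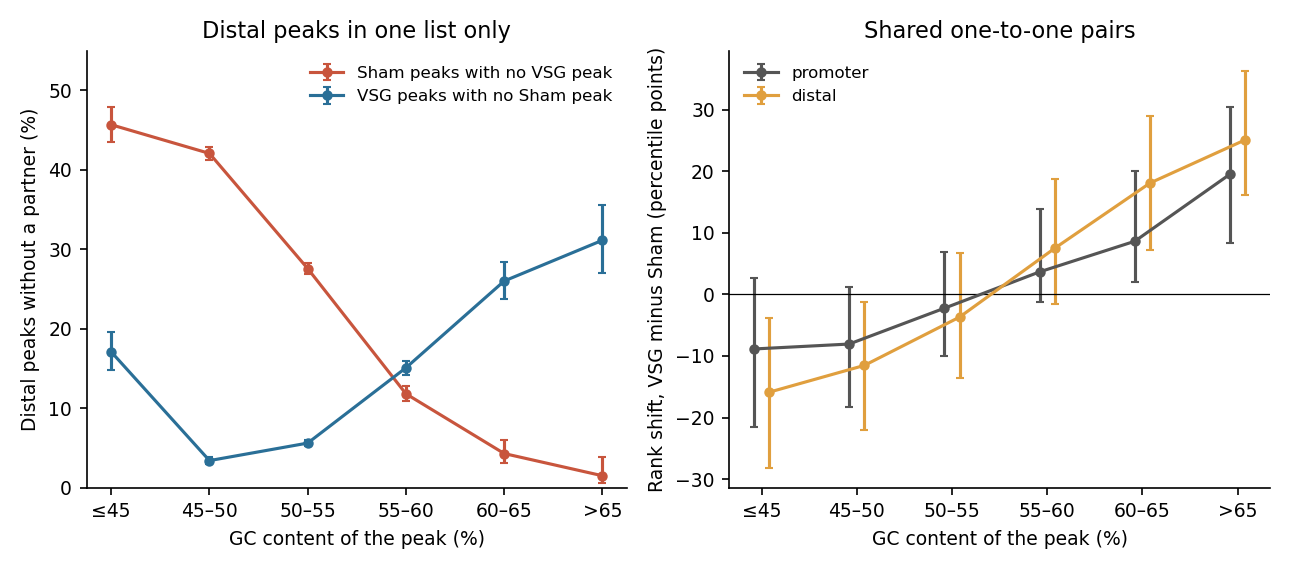
Left, percentage of distal peaks without a partner (y axis, 95% Wilson intervals) by GC content of the peak (x axis), for Sham peaks (red) and VSG peaks (blue). Right, median rank shift of shared pairs in percentile points, VSG minus Sham, with quartiles as bars, for promoter pairs (grey) and distal pairs (yellow); both run from below 0 at low GC to 19.5 and 25.1 above 65% GC.

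Of the Sham-only peaks 23.3% (22.6 to 24.0%) overlapped a peak of the Control list, and of the VSG-only peaks 46.9% (45.4 to 48.4%), against 84.5% of the shared peaks. The nearest VSG peak was within 500 bp of 11.6% of Sham-only peaks, and the nearest Sham peak within 500 bp of 25.6% of VSG-only peaks. On the autosomes the share of Sham-only peaks ran from 22.05% on chromosome 11 to 28.5%. The deposited positions of sites called more accessible in Sham than in VSG mice, which come from the same libraries and are no independent evidence, numbered 99 and lay in 89 Sham-only peaks and 10 pairs. The 414 positions in the opposite direction lay in 227 VSG-only peaks and 173 pairs, and their peaks had a median GC content of 64.2%, against 48.9% for the 99.

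Factor motifs were searched on both strands within 100 bp on each side of the highest point of every peak, so that all windows were of 1 length. Sequences of several enhancer factors were found more often in Sham-only than in VSG-only peaks. C/EBP (TTGC and AA separated by 2 bases) was present in 15.0% of Sham-only, 6.40% of VSG-only and 11.2% of shared peaks of the Sham list. AP-1 (TGA and TCA separated by 1 base) was present in 11.7, 4.79 and 7.61%, HNF6 (ATTGATT) in 3.89, 1.01 and 2.06%, and FOXA (TGTTTAC) in 5.51, 2.35 and 4.17%. Outside promoters Sham-only peaks lay closer to shared peaks of the Sham list. There C/EBP was present in 15.0 and 13.3%, AP-1 in 11.7 and 9.38%, HNF6 in 3.97 and 2.57% and FOXA in 5.63 and 5.13%. The searched nuclear receptor half-site went the other way, with 27.3 and 29.5%. DR1 was rare. Over whole peaks it was present in 0.400% of Sham-only and 0.141% of VSG-only peaks. In the windows of equal length, a setting added after the data were seen, it was present in 47 of 13240 Sham-only peaks (0.355%, 0.267 to 0.472%), 5 of 4263 VSG-only peaks (0.117%, 0.0501 to 0.274%) and 0.161% of shared peaks.

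Sequences typical of CpG-rich promoters were found more often in VSG-only than in Sham-only peaks. The GC box bound by SP1 (GGGCGG) was present in 28.4% of VSG-only, 4.85% of Sham-only and 23.9% of shared peaks, and ETS (CCGGAAG) in 4.13, 1.41 and 6.39%, so that ETS was most frequent in shared peaks. Outside promoters the GC box was present in 15.5% of VSG-only and 4.34% of Sham-only peaks, and AP-1 in 6.03 and 11.7%. STAT (TTCC and GGAA separated by 1 base) was present in 1.62% of Sham-only and 0.821% of VSG-only peaks, and NF-kB (GGGA and TTCC separated by 2 bases) in 1.02 and 1.48%. The GC content given above moves with these shares, and its part in them was not tested.

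The 10 Sham-only peaks of highest signal lay at percentiles 76.2 to 81.1 of the Sham list, and 9 of the 10 were distal. The strongest was 2706 bp from Ndfip2, an adaptor of ubiquitin ligases, and the next was 4834 bp from Cpb2, which encodes a carboxypeptidase that slows the breakdown of blood clots. The third, 1033 bp long, was 8390 bp from Serpina3n, an acute phase protease inhibitor, and another was 3479 bp from Id3, an inhibitor of basic helix-loop-helix factors. The peak at the histone gene Hist1h2bp covered the TSS. The nearest TSS of the others belonged to Fam105b (79881 bp away), Pank3 (242768 bp), Orai3 (2363 bp), Mapkapk2 (28846 bp) and BC039771 (81382 bp). All of these peaks lay in introns, counted over any annotated gene and not only the gene named. Of the 10 peaks 5 overlapped a Control peak, namely those near Ndfip2, Cpb2, Serpina3n, Id3 and Mapkapk2.

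Among the 10 strongest VSG-only peaks, at percentiles 64.7 to 81.2 of the VSG list, 9 overlapped a Control peak. Besides the pair shown above they included another at Gm10715 in the same stretch of chromosome 9, and peaks assigned to G430095P16Rik, Adssl1, Cyb5b, Cpeb4, Vstm2a and 1700025C18Rik. The nearest TSS was 55016 bp away for Cyb5b and 525728 bp for Vstm2a. Adssl1 takes part in purine synthesis and Cpeb4 binds the tails of mRNAs.

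The largest rank shifts among shared pairs were of like size in both directions. Toward Sham they ran from −72.6 points near Nrarp, a Notch target, to −64.1 near Barx2, and they included pairs nearest to Il1r1, the receptor for interleukin 1 (−66.3), and Bmp4, a signalling protein (−65.5). The TSS was 30742 bp away for Nrarp, 80722 bp for Barx2, 61196 bp for Il1r1 and 121496 bp for Bmp4. All but 1 of these 10, at the promoter of Rps10 (−69.4), were outside promoters, and GC content was 43.1 to 52.8%. Toward VSG they ran from 74.0 points at Gm10106 to 62.7 at Lin7b and included Reep3 (70.9), Katnal1 (66.5), Gpm6a (65.6) and Acot4, a fatty acyl-CoA thioesterase (64.1). The pair assigned to Gpm6a lay 165838 bp from its TSS and that of Katnal1 14164 bp. The pairs at Gm10106, Gm10718 and Gm11167 lay in the same satellite stretch of chromosome 9 as the strongest VSG-only peaks, and their shifts are less certain. The others toward Sham were nearest to Fryl, 8030423J24Rik, Spin1, Lnx1 and 9130017K11Rik, and the others toward VSG to Sfi1 and Gm17379.

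Which genes had an accessible promoter in one list only was asked next. A promoter peak was present in the Sham list only for 285 of 22219 protein-coding genes (1.28%) and in the VSG list only for 598 (2.69%), while 10971 had one in both. Of 391 genes of 22 lists of liver function and cell type, 13 had one in Sham only and 13 in VSG only. At equal list size the numbers were 6 and 20. Of the 13 Sham-only genes 6 kept their state at equal list size, 3 with the upper 50% of signal (Hamp, Saa1 and Serpina3n), 13 with peaks of at least 250 bp and 11 with a promoter of 2500 bp. Of the 13 VSG-only genes 11, 0, 4 and 10 did, so that most of the VSG-only states rested on short peaks. With 2500 bp Serpina3n, Cd68, Il1rn, Cyp7b1 and Cdh5 had a promoter peak in both lists.

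Acute phase genes were the list with the most Sham-only promoters, with 5 of 22 (22.7%) against 1.28% of all genes, and 0 in VSG only. These 5 were Saa1 and Saa2, which encode serum amyloid A, Apcs, the amyloid P component, Serpina3n, and Hamp, the iron hormone hepcidin. The Sham peaks at Hamp (chr7:31728992-31729733) and Saa1 (chr7:53998281-53998673) stood at percentiles 60.5 and 61.2 of the Sham list, that of Serpina3n (chr12:105644622-105645431) at 54.2, that of Saa2 at 33.0 and that of Apcs at 7.50. Control mice had a promoter peak too at Saa1, Saa2, Serpina3n and Hamp but not at Apcs. Only uniquely mapped reads were used, and Saa1 and Saa2 are near copies of each other, so that their values are less certain. At Serpina3n another Sham peak near the TSS overlapped a VSG peak that began over 1 kb from the TSS, and it is one of the pairs below. With equal list size Hamp, Saa1, Saa2 and Serpina3n kept this state, and Apcs had no peak in either list.

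The 20 promoter pairs of the list, among them the further Serpina3n pair with a shift of 11.99, had a median rank shift of −7.70 points, with 6 ranking higher in VSG, against 6.21 points and 72.2% of the 11269 promoter pairs of all genes. After centring on GC content the median was −4.81, with 7 of 20 above 0, against −1.22 for all genes. This was not particular to acute phase genes, since the centred medians of the cholesterol, clock, ER stress and glucose and insulin lists were lower, at −8.13, −6.79, −6.75 and −6.56. Shifts included −24.1 at Orm1 and −13.4 at Orm2, which encode orosomucoids, −20.7 at Itih4, a plasma protease inhibitor, −14.0 at Fga and −9.02 at Fgg, 2 chains of fibrinogen. The shift was 15.5 at Hp, the haemoglobin-binding haptoglobin, and 13.6 at Steap4, a metalloreductase. A distal Sham-only peak was nearest to 16 of the 22 genes (72.7%), against 26.8% of all genes, but also to 73.9% of glucose and insulin signalling genes and 72.2% of cholesterol genes. A distal VSG-only peak was nearest to 2 of the 22 (9.09%), against 8.45% of all genes.

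RNA was then read for the same genes. Transcripts were kept when 2 or more mice reached an FPKM of 1. Each gene was read by its transcript of highest mean FPKM over all mice, which need not stand for the whole gene. In limma over the 11511 that did, 9 (0.0782%) passed an FDR of 10%, with 6 higher and 3 lower in VSG, and 571 had an unadjusted p under 0.05. All 9 were listed at 0 in both mice of one group, and none belonged to a gene named here for its peaks. Exact permutation of 2 mice against 2 could not reach a p below 0.333, so the values per mouse are given with the limma estimate.

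Hamp RNA was 1253 and 718 FPKM (Sham) against 99.7 and 4.74 (VSG), a log2 difference of −5.30 ± 1.36 (SE, limma adjusted p = 0.766). The groups did not overlap, and Control mice had 2052 and 2407. Serpina3n RNA was 929 and 2191 FPKM (Sham) against 725 and 378 (VSG), without overlap (−1.45 ± 0.55, adjusted p = 0.937). Apcs overlapped, with 1125 and 4400 (Sham) against 1316 and 293 (VSG). Of the 14 acute phase genes tested, all 14 had a negative log2 estimate, with a median of −1.40, and in 8 both VSG mice lay below both Sham mice, against 9.47% of all 9191 genes. None of the 14 passed the FDR. No FPKM was matched to Saa1 and Saa2.

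RNA of Orm1, for which the promoter pair ranked lower, was 6956 and 11194 FPKM (Sham) against 5117 and 1720 (VSG). RNA of Hp, for which the pair ranked higher in VSG, was 14410 and 22141 (Sham) against 11080 and 4459 (VSG), so that the direction of rank and of RNA differed at this gene. Cpb2 and Id3, the neighbours of strong Sham-only peaks, also did not overlap. Cpb2 had 451 and 747 FPKM in Sham and 323 and 256 in VSG mice, and Id3 had 38.4 and 23.1 against 18.9 and 4.82. Ndfip2 differed in the other direction, with 5.82 and 7.10 against 7.56 and 10.02, as did Pank3, with 6.31 and 5.09 against 6.51 and 7.25. RNA of Fam105b, Hist1h2bp, Orai3 and Mapkapk2, the nearest genes of other strong Sham-only peaks, overlapped between the groups, and BC039771 did not pass the FPKM filter.

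**Figure D4:**
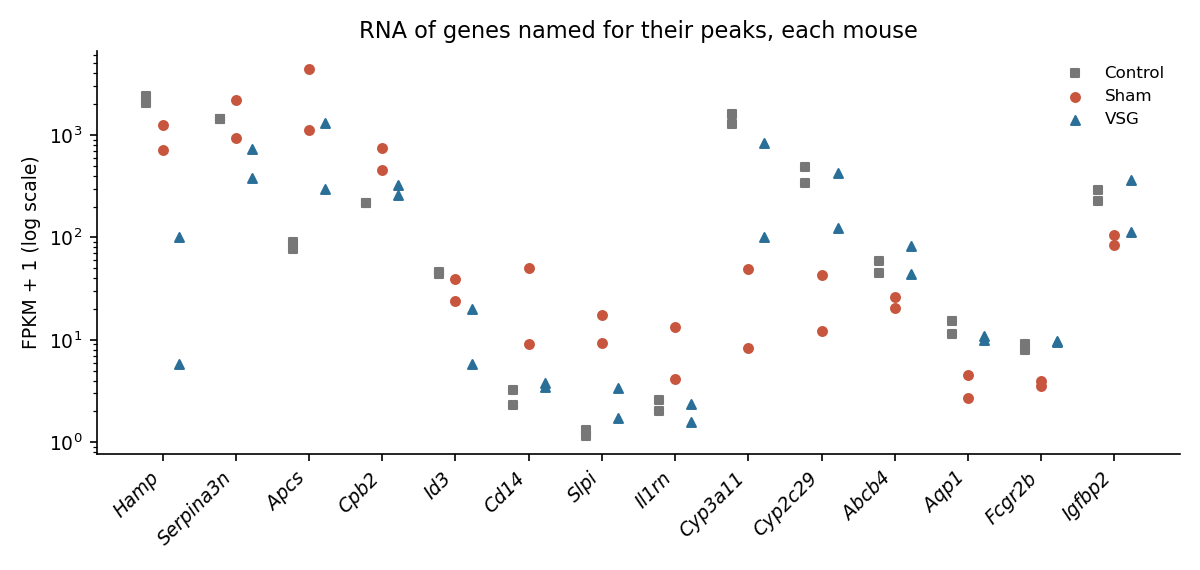
FPKM + 1 (y axis, log scale) of 14 genes picked from those named for their peaks or by the study, with 1 point per mouse for Control (grey squares), Sham (red circles) and VSG (blue triangles). Hamp, Serpina3n, Cpb2, Id3, Cd14, Slpi and Il1rn lay lower in both VSG than in both Sham mice, and Cyp3a11, Cyp2c29, Abcb4, Aqp1, Fcgr2b and Igfbp2 higher.

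Toll-like receptor genes had 2 Sham-only promoters of 15, against 1.28% of all genes. These were Cd14, the co-receptor for bacterial lipopolysaccharide, at percentile 6.87, and Tlr4, its signalling partner, at percentile 30.3. At equal list size Cd14 had a promoter peak in neither list. The 5 shared promoter pairs of the list lay the other way, with a median shift of 11.5 points (16.6 after centring on GC content) and 4 of 5 higher in VSG. Cd14 RNA was 8.13 and 49.0 FPKM (Sham) against 2.82 and 2.45 (VSG), without overlap (−2.56 ± 0.83, adjusted p = 0.927). Slpi, a protease inhibitor of inflamed tissue, had peaks at separate annotated start sites. A Sham-only peak stood at percentile 64.1 (chr2:164182408-164182705). A weak shared peak (chr2:164215446-164215680), at percentile 1.08 of the Sham list, ranked 38.4 points higher in VSG and is the Slpi pair counted above. Which start site the Slpi RNA came from was not tested. Slpi RNA was 8.31 and 16.3 (Sham) against 2.36 and 0.741 (VSG) (−2.39 ± 0.49, adjusted p = 0.536). Ccl9, a chemokine, Cd68 of macrophages, Hgf of stellate cells and Alb of hepatocytes were also Sham only, at percentiles 11.2 to 22.9. RNA of Ccl9 and Cd68 overlapped between the groups. In deciles 2 and 3 of Sham signal 59.5 and 48.4% of all peaks lacked a partner.

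In the IL-6 and NF-kB signalling list 0 of 19 genes were Sham only, against 1.28% of all genes, and 2, Nfkb1 and Il1rn, were VSG only, against 2.69%. Both had no peak in either list among peaks of at least 250 bp. Its 21 promoter pairs had a median shift of 13.5 points, which was 1.34 after centring on GC content. RNA of Il1rn, the antagonist of interleukin 1, was 3.11 and 12.3 FPKM (Sham) against 0.580 and 1.37 (VSG). In this list RNA was lower in both VSG mice than in both Sham mice for 8 of 14 genes, against 9.47% of all genes. Il6ra and Il6st were listed at 0 in every mouse and are not among the 14. Il1r1, among the 8, was listed at 0 in 1 VSG mouse and in 1 Control mouse, so that zeros of the transcript read enter such counts.

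Of 24 Cyp2b, Cyp2c and Cyp3a genes 2 were VSG only, against 2.69% of all genes, and neither kept this state among peaks of at least 250 bp. Cyp3a11, a main steroid and drug hydroxylase, and Cyp2c70, which makes muricholic acids, were VSG only and Cyp3a57 was Sham only, while 18 had no promoter peak in either list. Cyp3a11 RNA was 48.6 and 7.32 FPKM (Sham) against 100.1 and 828 (VSG) (3.83 ± 1.29, adjusted p = 0.937). Cyp2c70 overlapped, with 73.3 and 62.6 against 86.4 and 54.9. Cyp3a57, with its Sham-only promoter, had more RNA in both VSG mice, at 0.77 and 1.55 (Sham) against 1.77 and 12.3 (VSG). Cyp2c29 had no promoter peak, and its RNA stood at 41.5 and 11.2 against 123 and 424. Cyp3a25 had a peak in both lists, with a shift of −12.5 that was 0.47 after centring on GC content, and RNA of 44.5 and 19.8 against 73.8 and 349. In 12 of 22 genes of the list both VSG mice lay above both Sham mice, against 19.1% of all genes. Reads and transcripts of these families are hard to assign among near copies, and their values are less certain.

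Of 20 bile acid genes 2 were VSG only and 0 Sham only, against 2.69 and 1.28% of all genes. Abcb4, which moves phospholipid into bile, had a VSG peak at percentile 33.5 and a GC content of 70.8%, and RNA of 25.3 and 19.3 FPKM in Sham and 81.2 and 43.4 in VSG mice (1.39 ± 0.38, adjusted p = 0.797). Cyp7b1, of the alternative pathway of bile acid synthesis, had one at percentile 15.1 and none among peaks of at least 250 bp, and its RNA overlapped, with 250 and 111 against 304 and 68.2. Cyp7a1, the rate-limiting enzyme of the main pathway, had no promoter peak in either list, and stood at 0 and 4.58 against 68.3 and 13.2. RNA lay higher in both VSG than in both Sham mice for 9 of the 20 genes, against 19.1% of all genes, and none passed the FDR. The 15 promoter pairs of the list had a median shift of −2.91, so that its shared promoters did not lean toward VSG.

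Sinusoidal endothelial markers had 3 of 12 promoters in VSG only, against 2.69% of all genes. These were Kdr and Cdh5, a growth factor receptor and a junction protein of vessels, and Aqp1, a water channel. Their VSG peaks stood at percentiles 34.9 (Kdr), 19.99 (Cdh5) and 6.58 (Aqp1) of the VSG list. GC content of these peaks was 65.3, 62.55 and 62.3%. In deciles 4, 2 and 1 of VSG signal, where they lay, 10.2, 27.5 and 34.2% of all peaks lacked a partner. Kdr had no peak in either list among peaks of at least 250 bp. Fcgr2b, an antibody receptor of these cells, was Sham only, at percentile 1.53, and had no promoter peak in either list at equal list size. Aqp1 RNA was 3.49 and 1.71 FPKM (Sham) against 8.94 and 9.94 (VSG) (1.58 ± 0.35, adjusted p = 0.593), and that of Fcgr2b was 2.53 and 2.98 against 8.73 and 8.58 (1.36 ± 0.23, adjusted p = 0.386). RNA of Kdr and Cdh5 was low and overlapped, with 0.57 and 0.11 against 0.43 and 1.23 for Kdr and 0.99 and 0.60 against 1.52 and 0.47 for Cdh5. In 7 of 11 genes both VSG mice lay above both Sham mice, against 19.1% of all genes. In bulk liver, fewer cells of a type and less RNA or fewer open alleles per cell cannot be told apart. Of the other cell type markers, 5 of 8 stellate and 2 of 15 macrophage genes lay above, against 19.1%, and 3 of 4 neutrophil genes below, against 9.47%, while Ly6g was listed at 0 in every mouse. The part of cell composition in the peak lists was not tested.

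**Figure D5:**
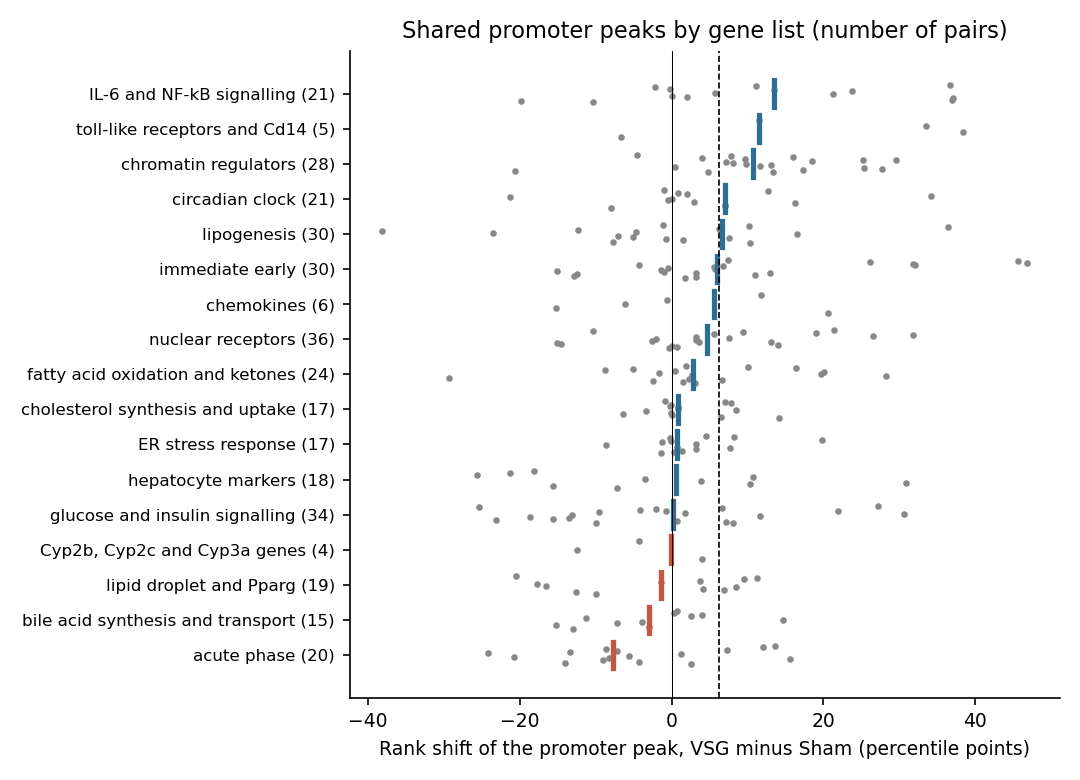
Rank shift of the promoter pair of each gene (grey points, x axis in percentile points, VSG minus Sham), by gene list with at least 4 pairs (y axis, number of pairs in parentheses), for 17 lists. Thick bars are medians over all pairs of the list, and the dashed line is the median of all genes, 6.21; acute phase genes have the lowest median, −7.70, and IL-6 and NF-kB signalling genes the highest, 13.5, an order that does not hold after centring on GC content (−4.81 and 1.34, with cholesterol genes lowest at −8.13 and toll-like receptor genes highest at 16.6).

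Several metabolic and regulatory lists had accessible promoters in both groups nearly throughout, against 49.4% of all genes. The neutrophil, macrophage and stellate lists did not, with 1 of 11, 2 of 16 and 1 of 13 genes. All 18 cholesterol genes, all 18 fatty acid oxidation genes and all 15 clock genes had a promoter peak in both lists. Median shifts of their promoter pairs were 0.82, 2.88 and 6.99 points, and −8.13, −0.13 and −6.79 after centring on GC content. In the nuclear receptor list 22 of 24 were in both, with shifts of 19.02 at Rxra, the partner of PPAR and LXR, and 14.0 at Nr1h3, which encodes LXR alpha. Pparg had peaks in both lists, and its shared pair shifted by −20.5. It also had a Sham-only peak at percentile 23.1 and a VSG-only peak at percentile 5.29. Promoter pairs of 60 to 65% GC, where Rxra and Nr1h3 lay, had a median shift of 8.64. Those of 45 to 50% GC, where the Pparg pair lay, had −8.06. Lrat, Igfbp2, Fosl1 and Crebbp were VSG only. Igfbp2 RNA was 83.3 and 106 FPKM (Sham) against 112 and 360 (VSG), without overlap (1.09 ± 0.59, adjusted p = 0.937).

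Across all genes the RNA of genes with a one-list promoter was compared with that of all genes. The 99 genes tested of the 285 with a Sham-only promoter had a median log2 difference of 0.15, the 216 of the 598 with a VSG-only promoter 0.05, and all 9191 genes 0.09. None of the 99 or the 216 passed the FDR. Both VSG mice lay below both Sham mice in 13.1% of the first, in 9.26% of the second and in 9.47% of all genes, and above in 26.3, 19.4 and 19.1%.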

How the data were processed

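FAIRE-seq was made from livers of 2 Control, 2 Sham and 2 VSG mice, and RNA-seq from the same livers. For the peak lists the authors aligned reads to mm9 with bowtie, kept reads with a unique position after removal of PCR duplicates, ran F-seq at a feature length of 250 bp and kept those reproducible between the 2 mice of a group by IDR. The signal deposited with each peak is the F-seq density, whose scale between lists is not stated, so that it was used only as a rank within a list. FPKM values per RefSeq transcript were deposited by the authors per mouse, from TopHat2 and Cufflinks. The methods name rRNA depletion and the labels poly(A) RNA for these libraries. Deposited fold changes and p-values of the authors' own DESeq2 comparisons were not used, and only the positions of the sites called between Sham and VSG were.

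Peaks were compared by overlap of at least 1 bp, annotated with the NCBIM37 genes and assigned to a promoter within 1 kb of a TSS. Rank shifts were taken over pairs in which 1 peak met 1 peak. RNA was tested with limma 3.58.1 (R 4.3.3) on log2(FPKM + 1), with all 6 mice in the fit, Benjamini-Hochberg adjustment and an FDR of 10%, so that fold changes of low transcripts are understated. Shares were computed in Python 3.11.15 with pandas 2.3.3 and scipy 1.17.1. Gene symbols came from a RefSeq table, which held 34046 of 34933 transcripts. Overlap and limma steps were tested on simulated data.

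Regions named are the 10 one-list peaks of highest signal in each list, the 10 largest rank shifts each way, list genes with a promoter peak in 1 list, and genes the study names. A VSG-only peak among these is not reported here. Members and lists were chosen with earlier results of these data known. Alternatives were reciprocal overlap, equal list size, the upper 50% of signal, a minimum length, a promoter of 2500 bp, other RNA settings and each mouse left out. P-values of 2 mice against 2 measure the spread between these mice.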

Additional observations from a re-analysis of the deposited data

How the results depend on the processing

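The order of promoter shares, Sham-only below VSG-only, held under each alternative run. The number of Sham-only peaks was 7299 with equal list size and 6880 with the upper 50% of signal. The number of VSG-only peaks was 7840 with a reciprocal overlap of 50%, 6621 with equal list size, 2496 with the upper 50% and 2670 for peaks of at least 250 bp. The promoter share of Sham-only peaks was 14.4% with reciprocal overlap, 6.97% with equal list size, 9.87% for peaks of at least 250 bp and 14.9% with a promoter of 2500 bp. That of VSG-only peaks was 34.4% with equal list size, 47.6% with the upper 50%, 45.4% for peaks of at least 250 bp and 45.9% with 2500 bp. The difference in median rank shift, promoter minus distal, was 12.4 with percentiles of the whole list, 10.7 with equal list size, 15.4 with the upper 50%, 11.7 for peaks of at least 250 bp and 9.51 with 2500 bp. Centring on GC content, chosen after seeing the data, turned it to −1.71, and the cause was not tested.

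The 9 limma calls became 19 with a pseudocount of 0.1 and 31 with no filter on FPKM. With the Sham and VSG mice alone limma called 0, with 434 transcripts at an unadjusted p under 0.05. Leaving out 1 mouse gave 0 to 60 calls, with 5 without Sham mouse 1, 60 without Sham mouse 2, 0 without VSG mouse 1 (782 unadjusted) and 0 without VSG mouse 2 (588 unadjusted). With the replicate number as a block limma called 0, with 602 unadjusted. The numbers were not taken to pair the mice, since deviations of same-numbered Sham and VSG mice correlated at 0.115 over only 2 pairs. The depth of the peak lists is unknown, and limits on weak peaks could not be set.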

Other observations

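The proximal end of chromosome 9, chr9:3020443-3038090, held 9 Sham peaks, none of them Sham-only, 16 VSG peaks, 7 of them VSG-only, and 14 Control peaks. The stretch is repeated satellite sequence, so that these counts are less certain. Of its 9 pairs 7 ranked higher in VSG, with shifts from 0 to 74.0 points. On chromosome Y, 2 of 14 Sham peaks were Sham-only and 15 of 27 VSG peaks (55.6%) were VSG-only.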
